A study of Mus musculus with 9 samples.

Results

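The 10 genes described here encode the proteins that place the replicative helicase on chromosomes and switch it on: Mcm2, Mcm3, Mcm4, Mcm5, Mcm6, Mcm7, Mcm10, Cdc6, Cdt1 and Cdc45. They were chosen by name, as genes read by a probe set (a group of short probes that together report 1 transcript) that carries a single gene symbol. All 10 were found, each with 1 such probe set, among 19938 genes measured in this way. Hearts of C57BL/6 mice, an inbred laboratory strain, were profiled as total RNA on Affymetrix Mouse Gene 1.0 ST arrays at 24 hours, 7 days and 10 weeks after birth. Each age has 3 arrays, 9 in all, and age is the only difference between the groups that the labels give. They name the tissue as heart, cardiac muscle, and give no treatment, transgene or mutant allele. Some arrays carried transcripts of other tissues, as described below. The study set the transcript levels of the 3 ages against each other. Whether the arrays of an age stand for different animals is not in the labels, so the p-values measure only the spread between these samples, which may be technical. In whole heart tissue, fewer cells making a transcript and less of it in each cell cannot be told apart.

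In a dividing cell, the origin recognition complex marks the sites where DNA copying can begin, and Cdc6 and Cdt1 load rings of Mcm2 to Mcm7 onto the DNA there before S phase. This step is called licensing. Loaded rings stay idle until Cdc45 and the GINS proteins join them to form the active helicase, with Mcm10 acting at the moment of activation, and geminin, the product of Gmnn, binds Cdt1 to prevent a second round. Many of these genes are known targets of the E2F transcription factors, and heart muscle cells of the mouse are known to leave the cell cycle soon after birth.

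Because E2F factors are the textbook regulators of these genes, the start regions of the 10 genes were read for their binding letters, and stretches that hold them are shown. Windows of 300 bases, from 250 before to 50 after an annotated transcript start (RefSeq, build GRCm38.p6), were at hand for 9 of the 10 genes in 10 windows, with a pair of windows for Mcm7. Mcm4 had none. The letters searched were TTTCCCGC, TTTCGCGC, TTTGCCGC and TTTGGCGC on both strands, where matches may overlap. They are in capitals below, each stretch is written 5′ to 3′ on the strand of its gene, and -1 is the base before the start.
Mcm6, bases -120 to -1, chr1:128359706-128359825, minus strand: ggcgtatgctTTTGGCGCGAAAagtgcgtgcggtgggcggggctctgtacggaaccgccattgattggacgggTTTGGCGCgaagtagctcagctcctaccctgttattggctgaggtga
Mcm5, bases -161 to -134, chr8:75109348-75109375, plus strand: ccaagaacTTTCGCGCCAAAacgtccag
Mcm7, bases -175 to -148, chr5:138172031-138172058, minus strand: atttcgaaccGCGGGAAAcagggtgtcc
Mcm7, bases 7 to 34, chr5:138171850-138171877, minus strand: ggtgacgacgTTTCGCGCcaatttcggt
Mcm3, bases 10 to 37, chr1:20820276-20820303, minus strand: aacttccgtgGCGGGAAAacttgggaag
Cdc6, bases -148 to -121, chr11:98908003-98908030, plus strand: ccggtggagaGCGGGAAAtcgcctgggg
Cdt1, bases 23 to 50, chr8:122568037-122568064, plus strand: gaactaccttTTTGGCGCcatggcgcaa
For Mcm7 and Cdc6 the gene's RefSeq entry begins further upstream than the start used here, so their stretches lie inside the annotated gene.

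A further match in Mcm3, TTTGGCGC at bases 39 to 46, is not shown. Mcm6 held the letters at 3 places before its start, of which the first pair overlap on opposite strands, and the Mcm5 match is such an overlapping pair too. In all, 6 of the 10 windows (60.0%), from 6 genes, held at least 1 match, against 2.26% of all 32851 windows and 2.99% of the 19177 windows of genes tested on the array. The windows of Mcm2, Mcm10 and Cdc45 and the second Mcm7 window held none. The letters CCAAT, read by the factor NF-Y, stood in 8 of the 10 windows, against 37.4% of all windows. The letters TTTGAA, a core of the cell cycle homology region (CHR) that is typical of genes expressed in mitosis, stood in 2 of the 10, those of Mcm2 and Cdc45, against 17.9% of all windows. Other lists held E2F letters above the share of all windows too: 44.4% of 18 windows of E2F regulators, 33.3% of 3 of fork coupling genes, 28.6% of 7 of origin firing genes and 22.2% of 18 of S phase enzymes. A list of mitotic genes held E2F letters in 1 of 17 windows (5.88%), CCAAT in 94.1% and TTTGAA in 76.5%. A match is a string of letters and not a shown site of binding.

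Signals are log2 values as deposited and ran from 1.853 to 13.583, and the medians of the 9 arrays over the tested genes ran from 5.505 to 5.580. Markers of heart muscle were bright at every age: across 8 such genes, Myh6 and Tnnt2 among them, the lowest mean of a gene at any age was 10.72. A pair of 7-day arrays carried transcripts of other tissues. Ucp1, the uncoupling protein of brown fat cells, stood at 11.23 and 9.27 on 7-day replicates 2 and 3, against 4.30 on replicate 1 and 3.92 to 4.27 at the other ages, and the liver gene Alb stood at 7.81 on replicate 2 against 3.89 and 3.77 on replicates 1 and 3. Alb also varied at 24 hours, at 5.27, 4.16 and 6.04 on replicates 1, 2 and 3, against 3.73 to 4.12 at 10 weeks. Results that use the 7-day arrays were therefore also computed without replicates 2 and 3, which leaves 1 array at that age, assumed to vary as the other groups do. A gene is called where limma's moderated test gives a Benjamini-Hochberg adjusted p under 0.05 over all 19938 genes. By that rule 1050 genes rose and 959 fell in the first week, or 888 and 1247 when each array was centred on its median. From 7 days to 10 weeks 3388 rose and 3777 fell, or 5247 and 3307 when centred. The median gene moved by under 0.1 in each comparison of an age with another under both scalings.

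The 6 genes of the helicase ring had close levels at 24 hours and 7 days and far lower ones at 10 weeks. Mcm6, a ring subunit, measured 7.35, 7.30 and 7.50 on the 24-hour arrays, 7.60, 7.45 and 7.75 on the 7-day arrays and 5.48, 5.42 and 5.46 on the 10-week arrays. The adult arrays lay close together and far below all younger ones, while the ranges at 24 hours and 7 days overlapped. Between 7 days and 10 weeks Mcm6 fell by 2.15 on the log2 scale (SE 0.08), a 4.43-fold drop (limma, adjusted p = 4.79e-08). Only 0.627% of all genes had a difference as low or lower.

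Mcm3, another subunit of the ring, measured 6.68, 6.73 and 6.95 at 24 hours, 6.96, 6.91 and 7.18 at 7 days and 5.28, 5.17 and 5.52 at 10 weeks. Its adult arrays were again apart from the rest, and it fell 3.23-fold after the first week (log2 difference -1.69 ± 0.11 SE, limma adjusted p = 9.99e-07). Mcm5, which closes the gate through which DNA enters the ring together with Mcm2, measured 6.74, 6.74 and 6.85 at 24 hours, 7.04, 6.88 and 7.21 at 7 days and 5.41, 5.61 and 5.73 at 10 weeks. It was the 1 gene of the 10 whose 7-day arrays all lay above its 24-hour arrays. Its later drop was 2.76-fold (log2 difference -1.46 ± 0.10 SE, limma adjusted p = 1.61e-06).

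Mcm2, the other side of that gate, measured 7.47, 7.51 and 7.80 at 24 hours, 7.72, 7.62 and 7.95 at 7 days and 6.52, 6.17 and 6.36 at 10 weeks. It fell 2.67-fold from 7 days (log2 difference -1.42 ± 0.12 SE, limma adjusted p = 7.15e-06). Mcm4, part of the catalytic core with Mcm6 and Mcm7, measured 6.64, 6.68 and 6.95, then 6.80, 6.80 and 6.90, and at 10 weeks 5.53, 5.53 and 5.54. Those 3 adult values were the tightest of any ring gene, and the drop was 2.46-fold (log2 difference -1.30 ± 0.08 SE, limma adjusted p = 8.55e-07). Mcm7 measured 7.12, 7.04 and 7.31 at 24 hours, 7.12, 7.04 and 7.48 at 7 days and 6.40, 5.81 and 6.21 at 10 weeks. Its adult arrays were the most spread of the ring (SD 0.30), and its drop was 2.11-fold (log2 difference -1.08 ± 0.16 SE, limma adjusted p = 0.000302).

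**Figure D1:**
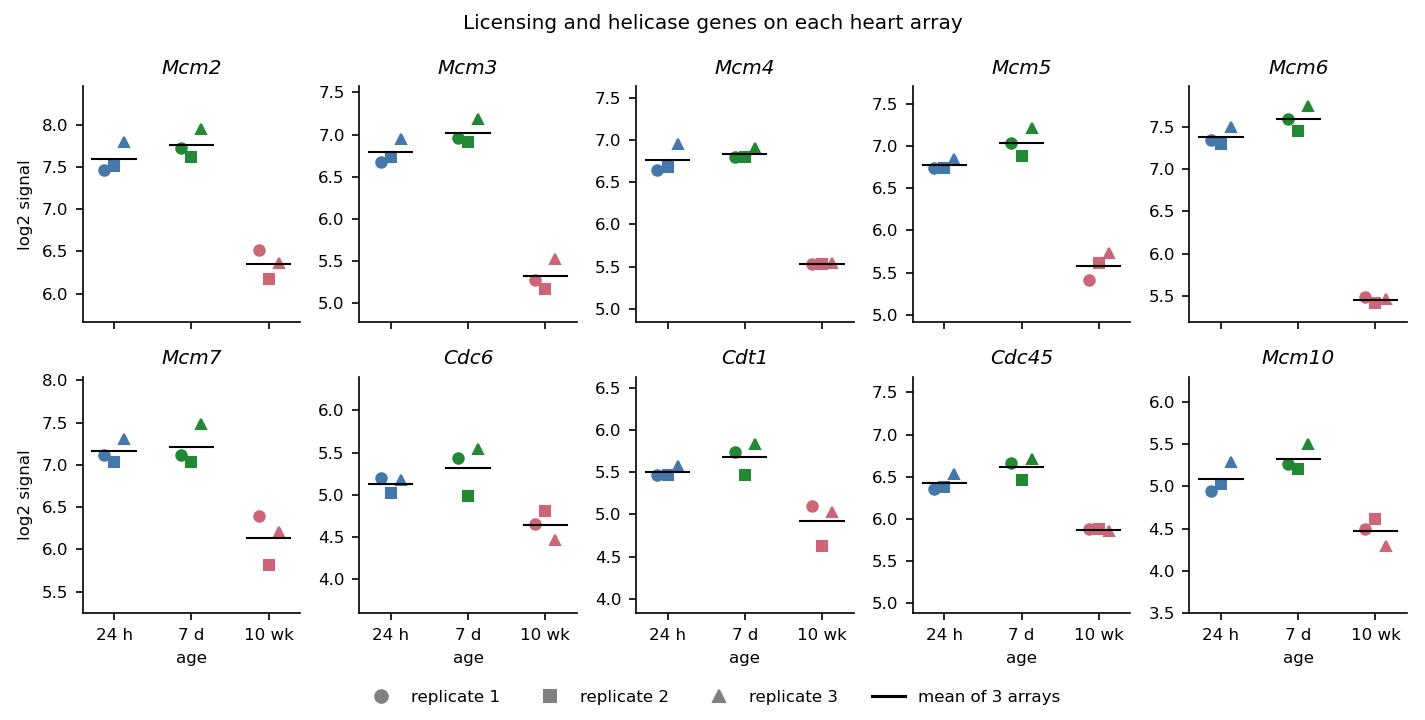
Log2 signal (y axis, its position set for each gene and its span the same in all panels) of the 10 genes on each of the 9 arrays, by age (x axis); marker shapes are the replicate numbers of the labels and black lines the means of 3 arrays. In every panel the 3 adult arrays lie below all 6 younger ones, as with Mcm6 at 5.42 to 5.48 against 7.30 to 7.75.

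The loaders and activators were also lowest at 10 weeks. Cdc6, the ATPase that joins the origin recognition complex to receive the ring, measured 5.20, 5.02 and 5.18 at 24 hours, 5.44, 4.99 and 5.54 at 7 days and 4.65, 4.81 and 4.46 at 10 weeks. It fell 1.61-fold after the first week (log2 difference -0.68 ± 0.14 SE, limma adjusted p = 0.00283). Cdt1, which carries the ring to Cdc6, measured 5.46, 5.46 and 5.57, then 5.74, 5.46 and 5.83, and at 10 weeks 5.10, 4.63 and 5.03. Its drop was 1.69-fold (log2 difference -0.76 ± 0.13 SE, limma adjusted p = 0.000923). For both loaders the 24-hour and 7-day ranges overlapped, with 7-day replicate 2 the lowest of its age, and the adult values lay below both ages.

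Cdc45, the helicase cofactor that travels with the active ring, measured 6.36, 6.38 and 6.53 at 24 hours, 6.66, 6.46 and 6.71 at 7 days and 5.88, 5.88 and 5.86 at 10 weeks. It fell 1.67-fold (log2 difference -0.74 ± 0.08 SE, limma adjusted p = 3.37e-05). Mcm10 is not a ring subunit despite its name. It measured 4.95, 5.03 and 5.29 at 24 hours, 5.27, 5.21 and 5.50 at 7 days and 4.50, 4.62 and 4.30 at 10 weeks, a drop of 1.81-fold (log2 difference -0.86 ± 0.11 SE, limma adjusted p = 0.000185). The age means of Cdc6 and Mcm10, and those of Cdt1 at 24 hours and 10 weeks, lay below 5.57, the median of all gene means, as did the 10-week means of the ring genes Mcm3 (5.33), Mcm6 (5.45) and Mcm4 (5.53), while Cdc45 lay above it at every age. No detection calls were used, and a fall towards a dim signal can be understated. Ranked differences of separate probe sets are therefore read as measured signal and not as sizes of change in transcript.

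Counted together, 10 of 10 genes fell between 7 days and 10 weeks, where 18.9% of all genes did so (limma, adjusted p under 0.05) and 17.0% rose. The 6 ring genes fell at least 2-fold, as 2.98% of all genes did. For Mcm7 this rests on single arrays, since its difference was -0.91 without 10-week replicate 2. The median difference of the 10 was -1.19, against 0.04 over all genes. In 10 of 10 genes no 10-week array reached any 7-day array, which held for 21.5% of all genes in that direction. Without 7-day replicates 2 and 3 all 10 were still called, with differences from -2.15 (Mcm6) to -0.79 (Cdc45), and Mcm7 stood at -0.98.

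Set against 24 hours, the adult hearts were lower for 10 of 10 genes again, with a median difference of -1.11 (background 20.6% of all genes). The 6 ring genes were past 2-fold here too, against 3.39% of all genes, and 10 of 10 had no overlap, against 23.6%. Mcm7 was again at the edge of 2-fold, at -0.85 without 10-week replicate 2. Mcm6 was lower by 1.93 on the log2 scale (SE 0.08, limma adjusted p = 4.38e-08) and Mcm7 by 1.02 (SE 0.16, adjusted p = 0.000362). Cdc6 had the smallest difference, -0.49 ± 0.14 (SE, limma adjusted p = 0.0166). That call was lost without 10-week replicate 3 (adjusted p = 0.0622), 24-hour replicate 1 (0.0598) or 24-hour replicate 3 (0.0563). Both adult comparisons share the 10-week arrays, so their counts are not independent.

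In the first week none of the 10 genes was called by limma, where 10.1% of all genes were. All 10 differences lay above 0, from 0.06 for Mcm7 to 0.27 for Mcm5, with a median of 0.19 against 0.00 over all genes. An unadjusted p under 0.05 was found for 3 of the 10, Mcm5 (0.0247), Mcm6 (0.0244) and Cdc45 (0.0364), and for 4234 of the 19938 genes in all, so the count is read as background. The adjusted values of these 3 were 0.150, 0.149 and 0.193. The 95% interval for Mcm5 ran from 0.04 to 0.49 and that for Mcm7 from -0.29 to 0.40, so rises up to 0.49 and 0.40 lie inside these intervals. Non-overlap in the upward direction, seen for Mcm5 alone among the 10, was seen for 12.6% of all genes. Without 7-day replicate 3 the Mcm7 difference was -0.08, and without 7-day replicates 2 and 3 it was -0.03.

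**Figure D2:**
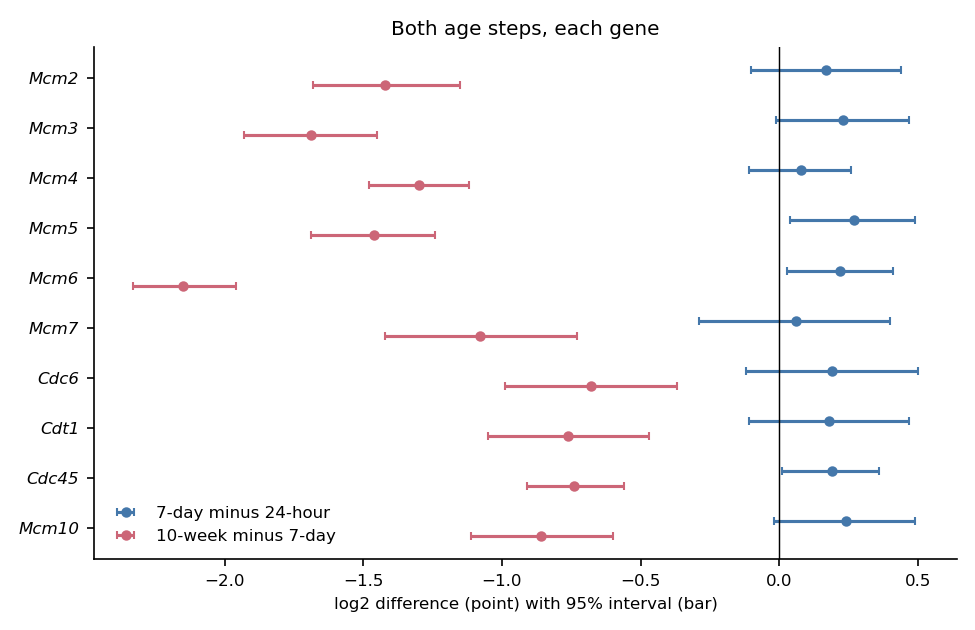
Log2 difference (x axis) of each gene (y axis) from 24 hours to 7 days in blue and from 7 days to 10 weeks in red; points are limma estimates and bars their 95% intervals. The later differences run from -2.15 (Mcm6) to -0.68 (Cdc6), all with intervals below 0, and the earlier ones from 0.06 (Mcm7) to 0.27 (Mcm5).

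The difference between the steps was tested directly, as the change after 7 days minus the change before it. It was below 0 and called for 10 of 10 genes, against 10.7% of all genes, with a median of -1.25. Since both steps use the 7-day arrays, an array that is high there moves both. Mcm6 had the most negative value, -2.37 ± 0.14 (SE, limma adjusted p = 4.78e-06), and Cdc6 the least, -0.88 ± 0.24 (adjusted p = 0.0282). The calls of Mcm7 (adjusted p = 0.0801), Cdc6 (0.146) and Cdt1 (0.0836) were lost without 7-day replicate 3, and those of Cdc6 (0.115) and Cdt1 (0.0620) without 7-day replicate 1. Cdc6 also lost it without 24-hour replicate 2 (0.0655), 10-week replicate 1 (0.0545) or 10-week replicate 3 (0.0502). With 7-day replicates 2 and 3 both left out 6 of the 10 remained called, and Mcm7 (0.255), Cdc6 (0.0583), Cdt1 (0.123) and Mcm10 (0.123) did not.

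Among arrays of the same age the 10 genes moved together at 24 hours and at 7 days, but not at 10 weeks. On 24-hour replicate 3 all 10 lay above their 24-hour mean, by a median of 0.13, and 9 had their highest 24-hour value there. At 7 days replicate 3 was the highest array for 10 of 10 genes (median 0.16 above the mean of the age) and replicate 2 the lowest for 9 (median -0.15). The 10-week replicates 1, 2 and 3 had 7, 5 and 7 of the 10 above the mean of the age, with medians within 0.02 of 0. The median over all genes stayed within 0.01 of 0 on every array. A list of 19 mitotic genes also stood high on 24-hour replicate 3, where 19 of 19 lay above their 24-hour mean. On the 7-day replicates 1, 2 and 3 it was 8, 4 and 17 of the 19, and on the 10-week ones 4, 15 and 8. The 7-day replicate 2 was also the array with the highest Ucp1 (11.23) and Alb (7.81). The summed linear signal of 4 red blood cell genes of the 7 listed was highest on replicate 3 at 24 hours and at 7 days. It was 438, 324 and 510 on the 24-hour replicates 1, 2 and 3 and 578, 571 and 758 on the 7-day ones. At 10 weeks that sum was 103, 232 and 108. Among these red cell genes Alas2 encodes the first enzyme of erythroid haem synthesis. Alas2 fell by 3.44 on the log2 scale (SE 0.6, limma adjusted p = 0.00111) from 7 days to 10 weeks. Its 10-week values were uneven, at 4.56, 7.12 and 4.25 on replicates 1, 2 and 3. Slc4a1 fell by 1.66 (limma adjusted p = 8.20e-06) and Epb42 by 0.51 (0.00592) in that step. The erythroid factor Klf1 measured 4.38 ± 0.19 at 7 days and 4.56 ± 0.06 at 10 weeks (SD, n = 3). Summed fibroblast markers (7 genes) ran from 6020 to 7140 at 24 hours, 9950 to 12500 at 7 days and 7030 to 8180 at 10 weeks. Single genes of that list went both ways: at 10 weeks 3 of the 7 were higher than at 24 hours and 3 lower (limma, adjusted p under 0.05). Of all 19938 genes 3878 were higher and 4111 lower. Means at the 3 ages were 10.02, 10.52 and 7.50 for Col1a1, and 11.47, 12.30 and 12.33 for Dcn. Endothelial markers ran from 5000 to 5020, 5430 to 5680 and 4280 to 4780 at the 3 ages. Macrophage markers ran from 686 to 758, 1100 to 1200 and 2480 to 2650, and muscle markers from 51500 to 52300, 49600 to 51200 and 49700 to 51000. Thymocyte markers, a sign of thymus caught with the heart, summed to between 120 and 146 on all arrays. The part of these cell types in the result was not tested.

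**Figure D3:**
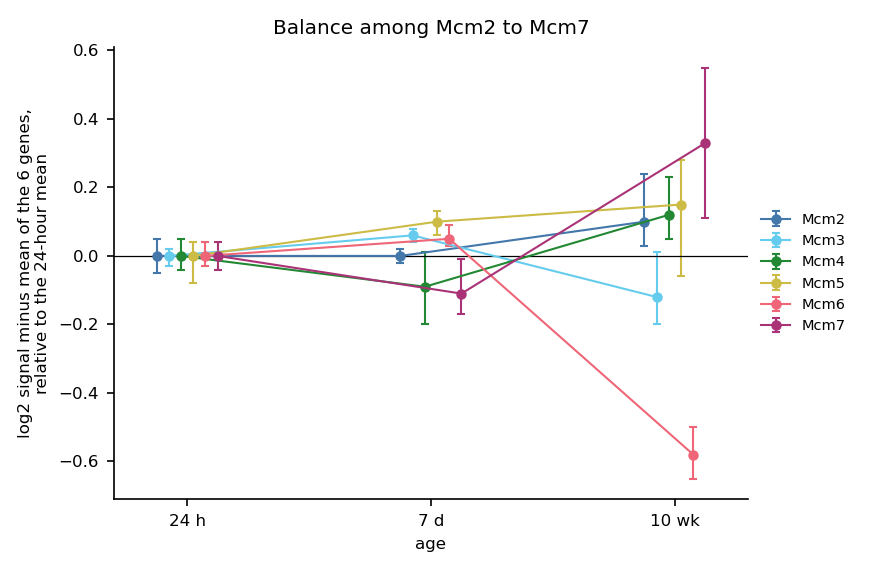
Log2 signal of each ring gene minus the mean of all 6 on the same array, set to 0 at the 24-hour mean (y axis), by age (x axis); points are means of 3 arrays and bars run from the lowest to the highest array. Mcm6 drops to -0.58 at 10 weeks and Mcm7 climbs to 0.33, while at 24 hours and 7 days the 6 genes stay between -0.20 and 0.13.

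The ring is built from 1 copy of each subunit, so the balance among the 6 genes was followed on each array, as a gene's log2 signal minus the mean of the 6. The 6 changes in balance sum to 0 by construction, so the fall of Mcm6 lifts the values of the others. From 7 days to 10 weeks Mcm6 dropped by 0.63 against that mean and Mcm3 by 0.18, and the values of Mcm7, Mcm4 and Mcm2 were 0.44, 0.22 and 0.10. In these 5 genes the arrays of both ages did not overlap. An exact permutation test, two-sided, gave p = 0.1 for each of the 5, the smallest that 3 against 3 arrays allow (0.12 after adjustment over the 6 genes). Mcm5 stood at 0.10 ± 0.03 and 0.15 ± 0.19 (SD, n = 3; exact p = 0.7), with adult arrays from -0.06 to 0.28. Mcm6 lay between -0.65 and -0.50 on the adult arrays and between 0.03 and 0.09 on the 7-day arrays, relative to its place at 24 hours. These are unequal changes of signal and not amounts of protein.

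The genes of the origin recognition complex act upstream of the ring. After 7 days 2 of the 7 listed genes fell, where 18.9% of all genes did, Orc6 by 1.03 (SE 0.08, limma adjusted p = 4.96e-06) and Orc2 by 0.30 (SE 0.06, adjusted p = 0.00377). Orc6 measured 6.98, 6.90 and 6.76 at 7 days and 5.96, 5.71 and 5.88 at 10 weeks. The remaining subunits Orc1, Orc3, Orc4 and Orc5 and the associated factor Lrwd1 had differences from -0.16 to 0.02 and did not pass the test. Set against 24 hours the adult heart was lower for 4 of the 7, where 20.6% of all genes were lower. They were Orc6 (-0.80), Orc5 (-0.31), Orc2 (-0.21) and Orc3 (-0.20), with limma adjusted p from 2.46e-05 to 0.0396. The calls of Orc2 and Orc3 there were lost in some fits that left out 1 array (adjusted p up to 0.0679 and 0.155). Orc1 was dim, at 3.73 to 3.96 on all arrays, so a change there could be hidden.

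Genes that control licensing split in both directions. Gmnn, the inhibitor of Cdt1, measured 5.35, 5.46 and 5.62 at 24 hours, 5.50, 5.40 and 5.40 at 7 days and 6.26, 6.41 and 6.31 at 10 weeks. Its adult arrays were all above the younger ones, and it rose 1.86-fold after 7 days (log2 difference 0.90 ± 0.08 SE, limma adjusted p = 9.34e-06), in the direction opposite to Cdt1. The other gene of this list that rose, Cul4a, gained 0.15 (adjusted p = 0.0304), a call lost without 10-week replicate 1 (0.063) and without each of the 7-day replicates in turn (0.0546 to 0.0969). It is a scaffold of the ubiquitin ligase that destroys Cdt1 during S phase.

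Other parts of that ligase and of the second Cdt1 ligase fell. Dtl, which brings Cdt1 to the ligase, measured 6.38, 6.22 and 6.44 at 7 days and 3.94, 4.43 and 3.93 at 10 weeks (-2.25 ± 0.13 SE, limma adjusted p = 4.02e-07). The adaptor Ddb1 fell by 0.58 (adjusted p = 5.13e-05) and the second scaffold Cul4b by 0.45 (adjusted p = 0.0198). The Cul4b call was lost without 10-week replicate 1 (adjusted p = 0.0537), 10-week replicate 2 (0.0650), 7-day replicate 2 (0.0792) or 7-day replicates 2 and 3 (0.321). Skp2, of the other ligase, fell by 0.93 (adjusted p = 8.05e-06), and Fbxo5, an inhibitor of the anaphase-promoting complex that thereby shields geminin, by 1.71 (adjusted p = 2.72e-05). Mcmbp, which binds the MCM proteins, fell by 0.43 (adjusted p = 0.000129) and Rif1, an opponent of origin firing, by 0.33 (adjusted p = 0.00198; 0.0674 without 7-day replicates 2 and 3). Kat7, a histone acetylase that helps ring loading, differed by -0.17 and did not pass (adjusted p = 0.0621).

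**Figure D4:**
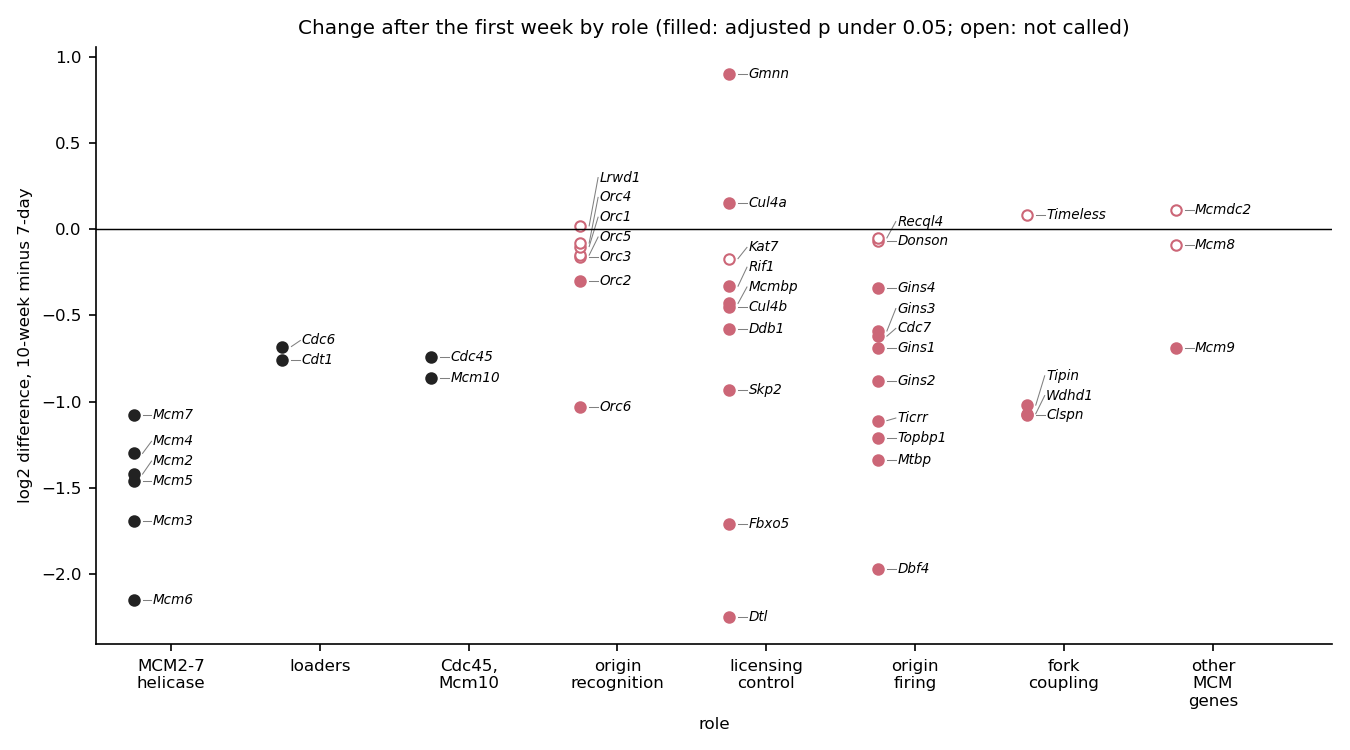
Log2 difference from 7 days to 10 weeks (y axis) of the 10 genes (black) and of 35 other genes of origin licensing and firing (red), grouped by role (x axis); filled points have an adjusted p under 0.05 and open ones do not. The origin recognition genes lie from -0.30 (Orc2, called) to 0.02 except Orc6 at -1.03, and Gmnn is the highest point, at 0.90.

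The genes that fire licensed origins fell in 9 of 11 cases after 7 days, where 18.9% of all genes fell. Dbf4, the activator of the Cdc7 kinase that phosphorylates the ring, measured 6.29, 6.26 and 6.35 at 7 days and 4.31, 4.31 and 4.38 at 10 weeks (-1.97 ± 0.12 SE, limma adjusted p = 5.99e-07). Cdc7 itself fell by 0.62 (adjusted p = 0.000279). The firing factors Mtbp, Topbp1 and Ticrr fell by 1.34, 1.21 and 1.11 (adjusted p of 4.76e-05, 5.60e-06 and 0.000178). The GINS genes, partners of Cdc45 in the active helicase, fell by 0.88 (Gins2), 0.69 (Gins1), 0.59 (Gins3) and 0.34 (Gins4), with adjusted p from 0.000326 to 0.00245. Recql4 and Donson, which differed by -0.05 and -0.07, did not pass and were dim at 4.23 to 4.52.

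At the moving fork, 3 of 4 genes fell: Clspn by 1.08 (adjusted p = 3.19e-05), Wdhd1 by 1.07 (1.02e-06) and Tipin by 1.02 (0.000428), all by limma. Timeless, the binding partner of Tipin, measured 5.67 ± 0.22 and 5.76 ± 0.13 (SD, n = 3) and did not pass (adjusted p = 0.606). Of the MCM genes outside the ring, Mcm9, which acts in DNA repair with Mcm8, fell by 0.69 (adjusted p = 0.000645), while Mcm8 (-0.09) and the meiotic gene Mcmdc2 (0.11) did not pass. Over all 35 pathway genes outside the 10, then, 22 fell, 2 rose and 11 did not pass after 7 days, with a median of -0.45. Of all genes 18.9% fell and 17.0% rose in that step. Set against 24 hours the adult heart had 25 lower and 1 higher, Gmnn, where 20.6% of all genes were lower.

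In the first week 4 of the 35 pathway genes fell and none rose, against 4.81% and 5.27% of all genes: Mcm9 by 0.42 (adjusted p = 0.0371), Ddb1 by 0.37 (0.00539), Kat7 by 0.23 (0.0449) and Cul4a by 0.23 (0.0113). Kat7 lost its call in 6 of the 9 fits that left out 1 array (adjusted p up to 0.145) and Mcm9 also in 6 (up to 0.125), and without 7-day replicates 2 and 3 only Ddb1 was called. Gmnn differed by -0.04 and did not pass (adjusted p = 0.86).

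Lists of other cell cycle genes were read beside the 10. Of all genes 5.27% rose and 4.81% fell in the first week, and 17.0% rose and 18.9% fell afterwards. Among the enzymes of S phase 3 of 17 tested genes rose in the first week, Pola1 by 0.53 (adjusted p = 0.00485), Pcna by 0.44 (0.000892) and Prim2 by 0.42 (0.00379), and 16 of 17 fell afterwards. Their median was then -1.07, and the largest falls were those of the primase gene Prim1 (-2.23) and the ribonucleotide reductase genes Rrm2 (-2.12) and Rrm1 (-2.01). The mitotic genes fell in 5 of 19 cases in the first week, the largest being Ccnb2 (-0.63, adjusted p = 0.00381) and Kif20a (-0.61, 0.0102), with a median of -0.20. Afterwards 19 of 19 fell with a median of -2.86, among them Ccna2 (-4.15) and Prc1 (-3.86). Of 19 E2F regulators and partners 3 rose and 4 fell in the first week. The CDK inhibitor gene Cdkn1c fell by 0.64 (adjusted p = 0.000383) and then by 0.30 (0.00739). The pocket protein gene Rbl2 fell by 0.49 (0.00363) and then rose by 0.73 (4.20e-05), which left it 0.25 higher at 10 weeks than at 24 hours (0.0323). E2f1 rose by 0.43 in the first week (adjusted p = 0.0262) and fell by 1.42 afterwards (2.59e-06), and the cyclin gene Ccne2 rose by 0.51 (0.00165) and then fell by 1.52 (1.50e-07). Cdk2, the kinase partner of that cyclin, differed by -0.07 (adjusted p = 0.71) and then fell by 2.25 (1.77e-08). The E2F family gene E2f8 fell by 1.37 (adjusted p = 2.59e-06) after 7 days, and the pocket protein gene Rbl1 by 1.31 (1.79e-07). Of the 19 genes, 3 rose and 13 fell in that step. The other two that rose, named after their values were seen, were the repressor gene E2f6, by 0.93 (5.63e-06) after a difference of 0.06 (0.765), and the E2F partner gene Tfdp2, by 0.83 (1.14e-05) after a fall of 0.40 (0.00748). Whether the groups differ from the 10 genes was not tested.

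Each gene was also compared with the mean profile of the 10 over the 9 arrays, by the root mean square distance of log2 values after removing each gene's own mean. Mcm4 lay closest to that mean (0.104) and Mcm6 farthest (0.432). The nearest pair within the group was Cdc45 and Mcm10, at 0.104. Among all genes Mcm10 ranked only 55 in nearness to Cdc45, and Cdc45 ranked 7 in nearness to Mcm10. For each of the 10 the nearest gene of all lay outside the group. Outside the group the 10 closest genes were Dyrk2 (0.0730), Plekhh1 (0.0873), Lin9 (0.0876), Tubb2a (0.0889), Ssr2 (0.0913), Rnaseh2b (0.100), Prdx4 (0.107), Kpna2 (0.113), Dynll1 (0.116) and 6720489N17Rik (0.116). Dyrk2, a protein kinase gene, differed by 0.16 in the first week and -1.27 afterwards (limma adjusted p = 0.229 and 4.45e-07). The distance depends mostly on the depth of the adult fall and says nothing of shared control.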

How the data were processed

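Hearts of 3 ages were measured on 9 arrays, and groups came from the age in the labels. The authors deposited 1 log2 intensity per feature and array; MAS5 5.0 was used per the submitters' processing notes, while how probes were summarised and arrays normalized is not stated in these sources. The table holds 35556 features, of which 23410 are listed in the platform table and 21789 carry 1 symbol (21698 matched by Entrez id). Where a gene had more than 1 such feature (999 genes), the brightest by its mean over all arrays stood for it, and 19938 genes remained. Values were used as deposited. limma 3.58.1 in R 4.3.3 was fitted to all 9 arrays with 1 mean per age, eBayes and an intensity trend (6 residual degrees of freedom), with Benjamini-Hochberg adjustment over all genes and calls at an adjusted p under 0.05. The script was tested on simulated data. Summaries, exact permutation tests and motif searches used Python 3.11.15, numpy 2.4.6 and pandas 2.3.3.

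The text names the 10 genes, the genes of the pathway lists and some cell type markers. It also names up to 4 genes with the largest called differences per compared list and comparison, and the 10 genes of nearest profile. The genes and lists were chosen with earlier results of these data known. Ccnb1 has no feature of a single symbol and was not tested. Alternatives were centring, quantile normalization, no intensity trend, a robust variance prior, the arrays compared alone, only genes above the median mean, the mean of a gene's features, a replicate block and leaving out arrays. An array has no read depth, so the number of arrays limits the precision.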

Additional observations from a re-analysis of the deposited data

How the results depend on the processing

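Across centring on the array median, quantile normalization, the mean of a gene's probe sets, no intensity trend, a robust variance prior, the compared arrays alone, genes above the median only, the replicate block and leaving out arrays, the 10 genes kept direction and call in 177 of 177 results from 7 days to 10 weeks. In the first week 0 of the 10 was called in each, and 175 of 177 kept their direction; Mcm7 ran from -0.08 (without 7-day replicate 3) to 0.15 when 1 array was left out and was -0.03 without 7-day replicates 2 and 3. The test between the steps called 7 to 10 of the 10 when 1 array was left out and 6 without 7-day replicates 2 and 3. The pathway genes called in the first week, 4 of 35, numbered 2 to 4 when 1 array was left out and 1 without 7-day replicates 2 and 3. With the replicate number as a block 2 pathway genes were called in the first week, Kat7 (adjusted p = 0.0549) and Mcm9 (0.0544) losing their calls. Cul4a after 7 days (0.0549) and Orc3 against 24 hours (0.0608) lost theirs too, and no other pathway gene and none of the 10 did. Deviations of same-numbered arrays from their age means correlated between -0.174 and 0.133, and those of differently numbered arrays between -0.216 and 0.25. A correlation over all genes cannot decide whether the numbers pair the arrays. Orc3 also lost its call when arrays were centred (0.0729), and the cause was not tested. Between the steps, centring turned 1619 higher and 2140 lower of all genes into 2349 and 1728, and the median over all genes from 0.037 into 0.124. With 3 arrays per age and no detection calls, small rises and changes of dim genes such as Cdc6, Mcm10 and Orc1 are at the limit of what these arrays show.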

Other observations

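A pair of the genes share their start region with a gene that runs the other way, found by position in RefSeq within 1000 bases. The start of Ap4m1, a subunit of a vesicle adaptor, lies 138 bases from a start of Mcm7. It measured 6.08 ± 0.10 at 7 days and 5.66 ± 0.10 at 10 weeks (SD, n = 3), a fall of 0.42 on the log2 scale (SE 0.09, limma adjusted p = 0.00473) beside 1.08 for Mcm7. Ufd1, which works with the p97 unfoldase, starts 322 bases from Cdc45 and measured 8.85 ± 0.03 and 8.71 ± 0.13, a difference of -0.13 ± 0.08 (SE, adjusted p = 0.224) beside -0.74 for Cdc45. The difference between each pair was not tested.

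The single nearest profile among all genes is given by name for each of the 10. The gene closest to Mcm10 over the 9 arrays was Gins2, at a root mean square distance of 0.0771, and the one closest to Mcm6 was the checkpoint kinase gene Chek1, at 0.0824. Closest to Mcm7 was the clamp loader gene Rfc3 (0.129), and closest to Mcm3 was Atad2 (0.0991). Zfp266 lay nearest to Cdc45 (0.0568), the smallest of these distances. Lin9 lay nearest to Mcm4 (0.064), Acer3 to Cdt1 (0.0854) and Wdr76 to Mcm2 (0.0982). Kit, the receptor of stem cell factor, lay nearest to Mcm5 (0.0794) and Tnfrsf10b nearest to Cdc6 (0.105), so a close profile on 9 arrays also joins genes of other functions. These genes were named after their values were seen.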
